A study of Mus musculus with 6 samples.

Results

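The genes that make, break down and sense the cyclic nucleotides were described in the lateral septum (LS) of mice fed olanzapine. Members were taken by gene symbol, with no use of their values, as the numbered adenylyl cyclases (Adcy), the guanylyl cyclases (Gucy), the numbered phosphodiesterases with a single subtype letter (Pde), the regulatory (Prkar) and catalytic (Prkac) subunits of cAMP-dependent protein kinase (PKA), and the cGMP-dependent kinases (PKG, Prkg1 and Prkg2). The rule found 49 genes among the 35415 in the deposited table, of which 43 passed the filter on low counts and were tested among 17255 genes. The 49 genes were 10 adenylyl cyclases, 9 guanylyl cyclases, 22 phosphodiesterases, 4 PKA regulatory subunits, 2 PKA catalytic subunits and 2 cGMP-dependent kinases.

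Wild-type female C57BL/6 mice, about 8 weeks old on arrival and acclimated for 1 week, received either plain maintenance chow (control group) or the same chow with olanzapine, an atypical antipsychotic, at 50 mg per kg of feed (olanzapine group) for 12 weeks. The LS was dissected, and RNA of 3 mice was pooled for each library, with 3 libraries per group, so that n = 3 pools per group throughout and the spread between single mice is unknown. Library totals ran from 38208153 to 39868872 counts on genes. Levels are given as library-scaled counts after TMM normalization (CPM), which compare 1 gene between pools, or as the deposited FPKM, which are per length and compare genes with each other.

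Adenylyl cyclases make cAMP from ATP when receptors act on them through stimulatory or inhibitory G proteins, and soluble guanylyl cyclase makes cGMP from GTP when nitric oxide binds it. Phosphodiesterases hydrolyze either or both messengers and so set how long and how far they spread in a neuron. PKA is held inactive by its regulatory subunits until cAMP binds them and frees the catalytic subunits, whereas the cGMP-dependent kinases carry their cGMP-binding sites and their kinase on a single chain. Neurons of the basal forebrain use these pathways downstream of dopamine, serotonin and peptide receptors.

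Promoter sequence of the members is shown first, because freed PKA catalytic subunits act in the nucleus on CREB, the factor that binds the palindrome TGACGTCA and its shorter core TGACG. RefSeq windows of the 250 bases before an annotated start (GRCm38.p6) were given for 39 of the 49 members, 79 windows in all, some of which overlap within a gene. On either strand TGACGTCA was found in 1 of the 79 windows (1.27%), against 1.55% of the 32851 windows of all genes. The shorter TGACG, which every TGACGTCA also holds on both strands, was found in 15 windows (19.0%), against 17.8% of all. Counted per gene, 13 of 39 members (33.3%) and 19.8% of 27025 genes held TGACG in any window, a count that also grows with the number of starts annotated per gene. For 6 kinase, cyclase and phosphodiesterase genes a piece of 30 bases around 1 match is shown, 5′ to 3′ on the strand of the gene. The motif is in capitals, and further matches of Prkaca and Prkar1a and those of other members are not shown. CGTCA is TGACG read on the other strand. The only palindrome was that of Prkar1a, at chr11:109650889-109650918 on the plus strand, and the others lay at chr5:139150033-139150062 (minus strand, Prkar1b), chr8:83972846-83972875 (plus strand, Prkaca), chr3:146813031-146813060 (minus strand, Prkacb), chr3:82074722-82074751 (minus strand, Gucy1b1) and chr4:102421509-102421538 (plus strand, Pde4b).
Prkar1a: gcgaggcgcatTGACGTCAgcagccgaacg
Prkar1b: tagagggcggagTGACGggcaggaggacga
Prkaca: gtctgcaactcgCGTCActcatccaggagc
Prkacb: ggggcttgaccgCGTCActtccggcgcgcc
Gucy1b1: tgcggctccactCGTCAttggctgagaaga
Pde4b: gatttggctgcaCGTCAattttctcatctg
The window of Prkar2a, the PKA subunit with the smallest p of the kinase genes, held neither motif. It covers chr9:108691893-108692142 on the plus strand, inside the GENCODE span of the gene, which starts further upstream at chr9:108689314.
Prkar2a: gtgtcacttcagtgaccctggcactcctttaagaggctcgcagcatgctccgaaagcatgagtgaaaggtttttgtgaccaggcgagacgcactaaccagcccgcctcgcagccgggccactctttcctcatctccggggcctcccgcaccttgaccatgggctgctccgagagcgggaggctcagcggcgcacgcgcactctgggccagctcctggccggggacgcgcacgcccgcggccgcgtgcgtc
A match is a description of letters, not a measured binding site.

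The pools differed in the RNA of cell type markers, and olanzapine pool 1 stood apart. The summed FPKM of 10 markers of cortical and hippocampal glutamatergic neurons was 304.4 in olanzapine pool 1, against 31.5, 37.9 and 43.5 in the control pools and 24.9 and 20.9 in olanzapine pools 2 and 3. Slc17a7, their vesicular glutamate transporter, had 659 CPM in that pool and 10.7 to 55.1 CPM in the other 5. For 12 markers of striatal projection neurons the sum came to 600.4, 1049 and 796 FPKM in control pools 1 to 3, against 616, 1283 and 1211 in olanzapine pools 1 to 3, so the pools with most striatal marker RNA were olanzapine pools 2 and 3. The 12 markers of LS neurons were above 0 in every pool and summed to 359.0 to 402 FPKM in the control pools and 354 to 409 FPKM in the olanzapine pools. Choroid plexus and ependymal markers summed to 98.4 to 5457 FPKM per pool, with overlapping groups. All 10 had log2 fold changes below 0 (median -0.63), and 1 was lower at an unadjusted p under 0.05 (edgeR). Of 8 nuclear-retained noncoding RNAs, 6 rose at an adjusted p under 0.05 with edgeR (319.1 to 381 summed FPKM in the control and 669 to 758 in the olanzapine pools), as did 13 of 14 hepatocyte genes, all but Ttr. In bulk tissue fewer cells of a type and less RNA per cell cannot be told apart.

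None of the 43 tested members changed at an adjusted p under 0.05 (0 members in edgeR's quasi-likelihood test, with p adjusted over all genes by Benjamini-Hochberg), where 2.32% of all tested genes did. With a log2 fold change beyond 1 asked for as well, the share of all genes was 1.01%, and the members again numbered 0. At an unadjusted p under 0.05 there were 6 members, 1 higher (Pde7a) and 5 lower (Prkar2a, Prkg1, Prkg2, Pde1c and Pde4b), against 17.6% of all tested genes (9.19% higher and 8.40% lower). DESeq2 called 1 member, Pde7a, at an adjusted p of 0.0406, where it called 6.69% of all genes. The pools of the groups did not overlap for 8 members, the same 6 with Prkacb and Gucy2e, both lower, and for 24.3% of all tested genes (13.3% higher and 11.0% lower). The median log2 fold change was -0.03 over the 43 members, with 17 above 0 and 26 below, and 0.00 over all tested genes.

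**Figure D1:**
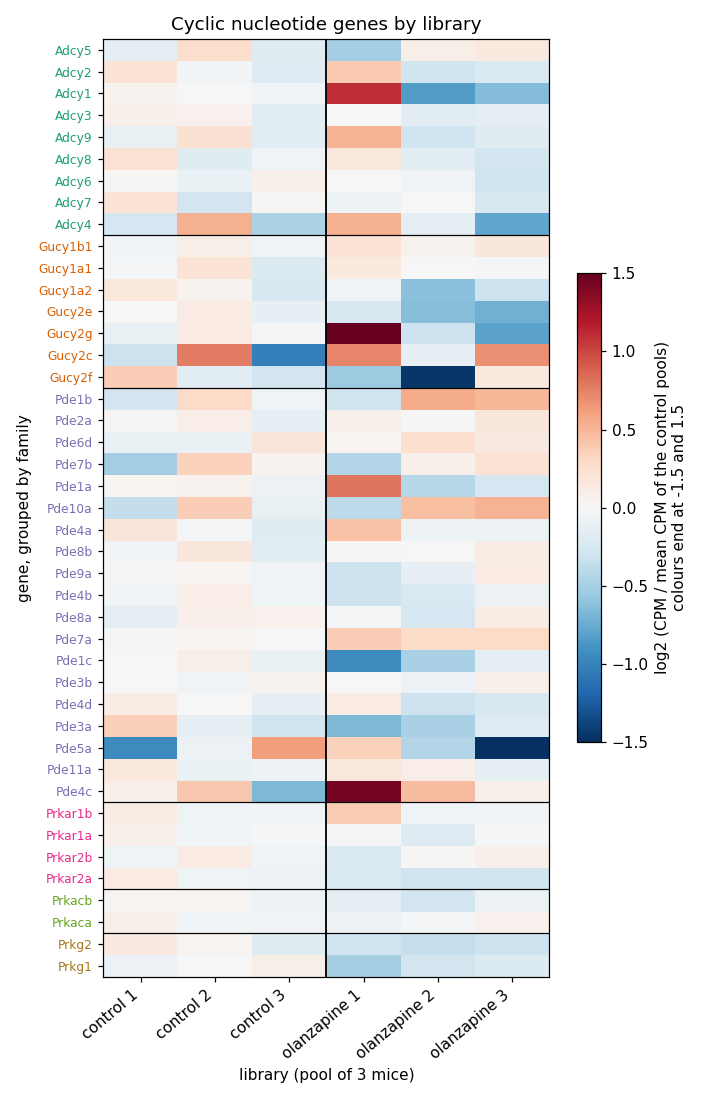
Heat map of the 43 tested members (rows, by family) in the 6 pools (columns), coloured by the log2 ratio of CPM to the mean of the control pools, with colours ending at 1.5 in either direction. Most rows are pale, olanzapine pool 1 differs from the other 5 pools for Adcy1, Pde1a, Pde4c and Gucy2g, and Pde7a is the row whose 3 olanzapine cells all exceed its control cells.

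**Figure D2:**
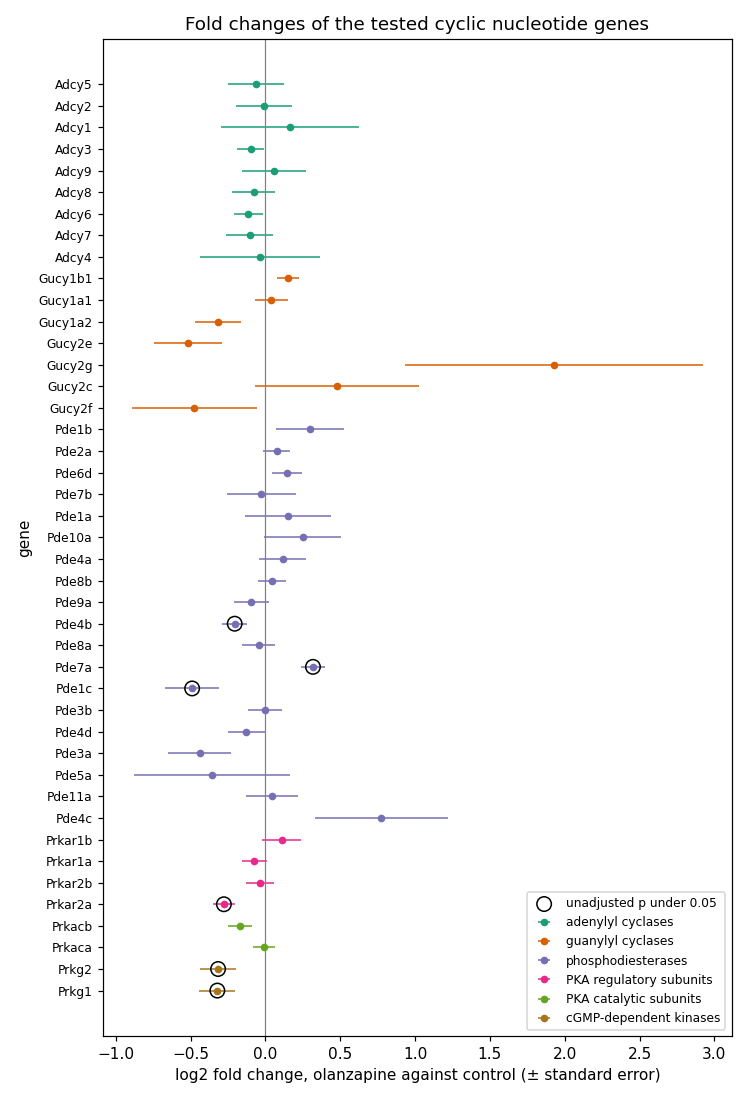
Log2 fold change (olanzapine minus control, horizontal axis) of each tested member with its standard error as a bar, grouped by family, and rings around members with an unadjusted p under 0.05. The 6 ringed members lie between -0.49 and 0.32, and none passed the adjusted test.

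Ordered by level, 3 PKA subunits came first, while the type II regulatory subunits and the cGMP-dependent kinases ranked lower. Prkar1b (206 FPKM, mean of 6 pools) and Prkar1a (198 FPKM), the type I regulatory subunits, were followed by the catalytic subunit Prkacb (116 FPKM), the calmodulin-activated phosphodiesterase Pde1b (112 FPKM), Prkaca (92.4 FPKM), the cGMP-stimulated phosphodiesterase Pde2a (84.7 FPKM), Adcy5 (73.4 FPKM) and the soluble guanylyl cyclase subunit Gucy1b1 (47.0 ± 2.71 FPKM in the control and 53.0 ± 1.75 FPKM in the olanzapine pools, SD). The group means ± SD of the neighbours Prkar1b (197 ± 11.6 FPKM in controls) and Prkar1a (202 ± 7.57 FPKM) lay within their spread, as did those of Prkaca (92.0 ± 3.96) and Pde1b (99.6 ± 20.4). At the other end, 6 members stayed under the filter with 0 to 14 counts in any pool. These were Adcy10, the bicarbonate-sensitive soluble cyclase, Gucy1b2, Gucy2d, and the photoreceptor phosphodiesterase subunits Pde6a, Pde6b and Pde6c. Pde2a shares 64.3% of its exon bases with a same-strand gene model, Gm45837, that the table does not list. Whether that model was in the annotation used for counting is not given, so any effect on the Pde2a counts is unknown. Adcy3 shares 22.1% with Cenpo on the opposite strand, and the strand setting of the counting is not given in the sources used here.

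Among the adenylyl cyclases, none of the 9 tested had an unadjusted p under 0.05, and their log2 fold changes ran from -0.11 to 0.16 with a median of -0.06. Adcy5, the main cyclase of striatal projection neurons, made up 45.3%, 54.1% and 48.7% of the summed cyclase FPKM in control pools 1 to 3, against 32.5%, 57.2% and 57.2% in olanzapine pools 1 to 3. Together with Adcy2, which G protein βγ subunits stimulate, and Adcy1, which calcium and calmodulin stimulate, it held 79.96% ± 1.146 of that sum in the control and 80.6% ± 1.33 in the olanzapine pools (SD). The family's total was nearly equal, at 150.0 ± 14.9 FPKM in the control and 149.8 ± 8.52 FPKM in the olanzapine group.

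Adcy5 had 493, 649 and 478 CPM in control pools 1 to 3 and 379, 576 and 596 CPM in olanzapine pools 1 to 3. The lowest of the 6 values was that of olanzapine pool 1, and the groups overlapped (log2 fold change -0.06 ± 0.19 SE, adjusted p = 0.896, edgeR). Adcy2 had 137, 116 and 104 CPM in the control pools and 156, 96.9 and 102 CPM in the olanzapine pools, a log2 fold change of -0.01 ± 0.19 (adjusted p = 0.987). Again olanzapine pool 1 lay outside the rest, here as the highest.

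Adcy1 varied most. Its CPM was 228, 220.5 and 213 in the control pools, against 477, 123 and 141 in the olanzapine pools. Olanzapine pool 1 was 2.09 times the highest of the other 5, whereas olanzapine pools 2 and 3 were below every control pool. With all pools the log2 fold change was 0.16 ± 0.46 (adjusted p = 0.891, edgeR's quasi-likelihood test). Without olanzapine pool 1 it was -0.74 ± 0.08 (adjusted p = 0.00325), the only member called in that fit, where 2.87% of 17687 genes were called. The ratio of Adcy1 to Adcy5 by FPKM was 0.271, 0.199 and 0.260 in the control pools, against 0.735, 0.125 and 0.138 in the olanzapine pools. The summed glutamatergic markers were likewise highest in olanzapine pool 1 and lowest in olanzapine pools 2 and 3, and their part in the Adcy1 values was not tested.

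The remaining cyclases moved less. Adcy9, an isoform insensitive to forskolin, had 53.3, 67.5 and 51.4 CPM in the control pools and 82.2, 46.7 and 50.5 CPM in the olanzapine pools, with the highest value again in olanzapine pool 1 (log2 fold change 0.06 ± 0.21). Adcy3, Adcy4, Adcy6, Adcy7 and Adcy8 had log2 fold changes between -0.11 and -0.03, with overlapping groups.

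**Figure D3:**
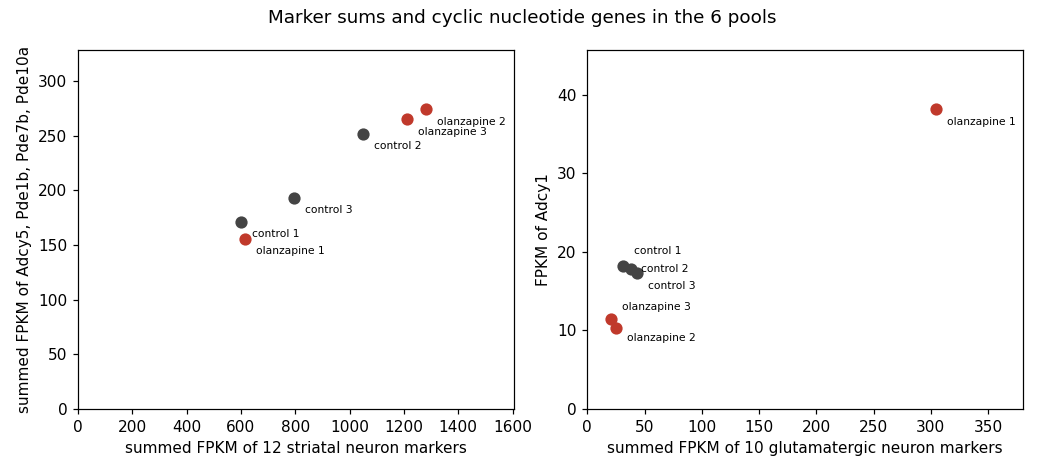
Left, summed FPKM of Adcy5, Pde1b, Pde7b and Pde10a (vertical axis) against the summed FPKM of 12 striatal markers (horizontal axis), and right, Adcy1 FPKM against the summed FPKM of 10 glutamatergic markers, 1 point per pool. In the left panel control pool 1 and olanzapine pool 1 are lowest on both axes and olanzapine pools 2 and 3 highest, and in the right panel olanzapine pool 1 lies far from the other 5 pools.

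In the guanylyl cyclases the nitric oxide-sensitive subunits Gucy1b1, Gucy1a1 and Gucy1a2 held 99.0% ± 0.0629 of the summed FPKM in the control and 98.8% ± 0.739 in the olanzapine pools (SD). None of the 7 tested members had an unadjusted p under 0.05, and the median log2 fold change was 0.04. Gucy1b1, the obligate β subunit, had 150.2, 164 and 148 CPM in the control pools and 179, 160.3 and 174 CPM in the olanzapine pools. Olanzapine pool 2 lay below control pool 2, so the groups overlapped (log2 fold change 0.15 ± 0.07, adjusted p = 0.338, edgeR).

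The α subunits that pair with it showed 78.7 to 106 CPM in the control and 89.4 to 101 CPM in the olanzapine pools for Gucy1a1 (log2 fold change 0.04 ± 0.11). Gucy1a2 had 62.2, 58.1 and 47.1 CPM in the control and 53.4, 36.2 and 44.9 CPM in the olanzapine pools (-0.32 ± 0.15, adjusted p = 0.336, edgeR, and -0.18 without olanzapine pool 2). Gucy1b1 and Gucy1a1 lie next to each other on the minus strand of chromosome 3, at chr3:82032006-82074689 and chr3:82092427-82145789 (GRCm38). The ratio of the β to the summed α subunits by FPKM was 2.27 ± 0.221 in the control and 2.55 ± 0.132 in the olanzapine group, with overlapping pools.

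The Gucy2 genes, membrane guanylyl cyclases, were all under 1 FPKM on average. Of the natriuretic peptide receptors, membrane guanylyl cyclases that the symbol rule leaves out, Npr1 averaged 1.03 FPKM and Npr2 11.99 FPKM. Gucy2e, a retinal form, had 2.66, 2.91 and 2.46 CPM in the control pools and 2.27, 1.72 and 1.62 CPM in the olanzapine pools, so every olanzapine pool lay below every control pool (log2 fold change -0.52 ± 0.23, adjusted p = 0.295, edgeR). Gucy2g rested on a single pool. Control pools held 26, 31 and 28 of its counts and olanzapine pools 275, 23 and 16, 9.26 times the highest other pool by CPM in olanzapine pool 1. Its log2 fold change was 1.93 ± 1.00 with that pool (adjusted p = 0.363, edgeR) and -0.53 without it. Gucy2c and Gucy2f had at most 95 counts in a pool and overlapping groups.

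The phosphodiesterases were led by the dual forms, which hydrolyze both messengers. Pde1b and Pde2a together with Pde6d, a carrier of prenylated proteins that is named for the photoreceptor enzyme but is not itself a hydrolase, held 67.7% ± 0.252 of the family's summed FPKM in the control and 69.7% ± 3.99 in the olanzapine pools (SD). Of the 19 tested members 10 had a log2 fold change above 0 and 9 below, with a median of 0.04. By substrate, the medians were 0.01 over 8 cAMP-specific members (Pde4, Pde7 and Pde8), -0.23 over 2 cGMP-specific members (Pde5a and Pde9a) and 0.06 over 8 dual members.

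Pde1b had 316, 466 and 364 CPM in the control pools and 310.1, 561 and 539 CPM in the olanzapine pools. The lowest 2 of these 6 values were those of olanzapine pool 1 and control pool 1 (log2 fold change 0.30 ± 0.23, adjusted p = 0.548, edgeR). Pde10a, a dual phosphodiesterase concentrated in striatal projection neurons, had 252, 415 and 299 CPM in the control and 246, 439.8 and 463 CPM in the olanzapine pools (0.25 ± 0.26, adjusted p = 0.668). Pde7b, a cAMP-specific form, had 68.7, 125 and 102 CPM in the control and 72.4, 104 and 114 CPM in the olanzapine pools (-0.03 ± 0.23). These 3 genes and Adcy5 summed to 171, 251 and 193 FPKM in control pools 1 to 3 and 155, 274 and 265 FPKM in olanzapine pools 1 to 3. The striatal marker sums were lowest in the same 2 pools and highest in the same 2 pools, and all 12 of those markers had log2 fold changes above 0 (median 0.29). Their part in these values was not tested. Without olanzapine pool 1 the log2 fold changes were 0.52 ± 0.14 for Pde1b (adjusted p = 0.0965, edgeR) and 0.49 ± 0.18 for Pde10a (adjusted p = 0.185), both with every olanzapine pool above every control pool. These were the highest values with 1 pool left out, and the lowest were 0.15 for Pde1b and 0.09 for Pde10a.

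Pde2a had 491, 518 and 442 CPM in the control and 512, 475 and 542 CPM in the olanzapine pools, and Pde6d 39.8, 39.8 and 48.4 against 43.9, 50.7 and 46.9 CPM. Both overlapped between the groups.

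Pde7a, the other enzyme of the Pde7 subfamily, was the only member with an unadjusted p under 0.05 that was higher in the olanzapine group. It had 19.1, 19.7 and 19.3 CPM in the control pools and 25.0, 23.5 and 23.8 CPM in the olanzapine pools. The 3 control pools lay within 1 CPM of each other and every olanzapine pool was above them (log2 fold change 0.32 ± 0.08, unadjusted p = 0.00384, adjusted p = 0.0905, edgeR's quasi-likelihood test). Its unadjusted p stayed under 0.05 in all 15 alternatives, from 0.00248 to 0.0191, and its adjusted p passed 0.05 in DESeq2. In absolute terms its level was low, at 2.01 ± 0.0483 FPKM in the control and 2.54 ± 0.0437 FPKM in the olanzapine group (SD). The gene spans chr3:19223108-19311322 on the minus strand (GRCm38). Pde7b, its paralogue, was higher than Pde7a by 4.99 to 11.0 times in FPKM across the pools.

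Pde1c, a calmodulin-activated dual enzyme, had 36.6, 38.5 and 34.0 CPM in the control pools and 18.8, 25.9 and 32.9 CPM in the olanzapine pools. All 3 olanzapine pools lay below the controls, olanzapine pool 3 only narrowly (log2 fold change -0.49 ± 0.18, unadjusted p = 0.0258, adjusted p = 0.209, edgeR). Without olanzapine pool 1, the lowest, its log2 fold change was -0.31. The third gene of that subfamily, Pde1a, followed Adcy1, with 106, 107 and 96.9 CPM in the control and 180.3, 76.8 and 85.9 CPM in the olanzapine pools. Its log2 fold change was 0.15 ± 0.29 with all pools and -0.34 ± 0.08 without olanzapine pool 1 (adjusted p = 0.0655).

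Pde4b, a cAMP-specific enzyme of the rolipram-sensitive group, had 140.1, 156 and 138 CPM in the control pools and 117, 124 and 136 CPM in the olanzapine pools. The highest olanzapine pool was just below the lowest control pool (log2 fold change -0.21 ± 0.08, unadjusted p = 0.0383, adjusted p = 0.250, edgeR). The other Pde4 genes had overlapping groups, with log2 fold changes of 0.12 for Pde4a, 0.77 for Pde4c and -0.13 for Pde4d. Pde4c had 24 to 100 counts per pool and was at 0.28 without olanzapine pool 1. Pde4d was at -0.27 without that pool (unadjusted p = 0.0132, edgeR), where its groups did not overlap, and with 1 pool left out its highest value was -0.05. Pde3a, which cGMP inhibits, had 12.7, 8.95 and 8.10 CPM in the control and 6.20, 7.08 and 8.68 CPM in the olanzapine pools (-0.44 ± 0.21, adjusted p = 0.328, and -0.22 without control pool 1). Pde3b, Pde5a, Pde8a, Pde8b, Pde9a and Pde11a had unadjusted p values above 0.05 and overlapping groups.

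**Figure D4:**
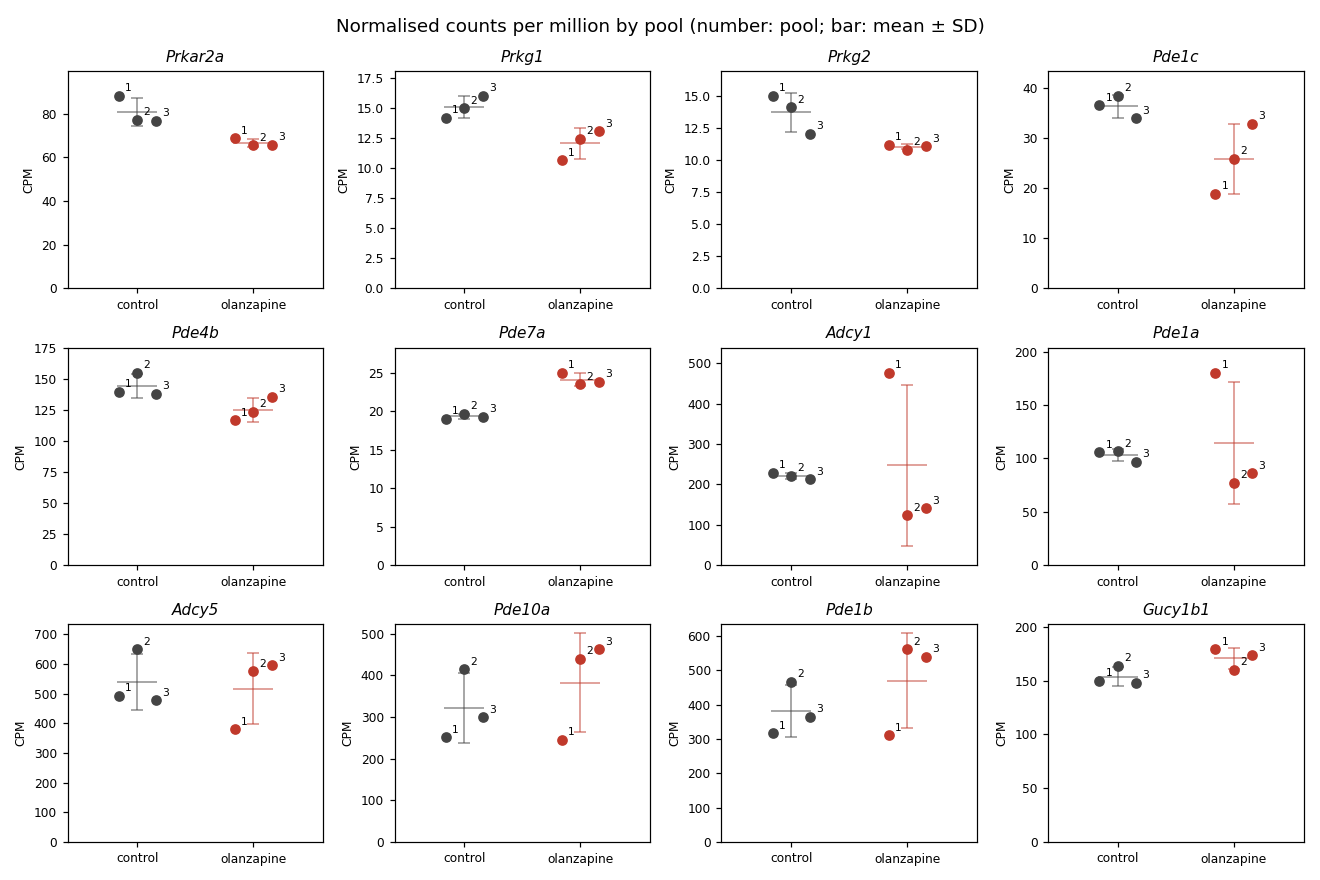
CPM in each pool for 12 members, 1 panel per gene with its own vertical axis from 0, control and olanzapine pools as points numbered by pool and group means ± SD as bars. Prkar2a, Prkg1, Prkg2, Pde1c and Pde4b have their 3 olanzapine points below, and Pde7a above, the 3 control points, and in Adcy1 and Pde1a olanzapine pool 1 lies above every other pool.

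Among the PKA regulatory subunits the type I forms exceeded the type II forms 9.63 ± 0.647 times in the control and 10.7 ± 1.83 times in the olanzapine pools by summed FPKM (SD). Prkar1a had 871, 800.4 and 806 CPM in the control pools and 809.9, 725 and 818 CPM in the olanzapine pools (log2 fold change -0.07 ± 0.08). Prkar1b, enriched in neurons, had 708, 626 and 634 CPM in the control and 858, 628 and 636 CPM in the olanzapine pools (0.11 ± 0.13), so only olanzapine pool 1 was outside the control range. The groups overlapped for both (adjusted p = 0.695 and 0.724, edgeR).

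Prkar2a, the widely expressed type II subunit that A-kinase anchoring proteins tether, was the kinase gene with the smallest p. It had 88.3, 77.4 and 76.9 CPM in the control pools and 68.8, 65.6 and 65.8 CPM in the olanzapine pools. Every olanzapine pool lay below every control pool (log2 fold change -0.28 ± 0.08, unadjusted p = 0.00653, adjusted p = 0.116, edgeR's quasi-likelihood test). The unadjusted p stayed under 0.05 in all 15 alternatives, from 0.00356 to 0.0247, and the log2 fold change without olanzapine pool 1 was -0.30 ± 0.08. The gene spans chr9:108689314-108750436 on the plus strand (GRCm38). Prkar2b, the neuronal type II form, had 92.9, 106 and 93.1 CPM in the control and 84.0, 98.4 and 102 CPM in the olanzapine pools (-0.04 ± 0.10, adjusted p = 0.882). The ratio of Prkar2b to Prkar2a by FPKM was 1.37, 1.79 and 1.58 in the control pools, against 1.59, 1.96 and 2.03 in the olanzapine pools, which overlapped.

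Of the catalytic subunits, Prkacb had 648, 647 and 598 CPM in the control pools and 572, 518 and 594 CPM in the olanzapine pools. The groups did not overlap, with the nearest pools 598 and 594 CPM (log2 fold change -0.17 ± 0.08, adjusted p = 0.333, edgeR). Prkaca had 247, 226 and 225 CPM in the control and 219.7, 228 and 244 CPM in the olanzapine pools (-0.01 ± 0.07, adjusted p = 0.950). Reads that also match other loci were not examined and could affect its counts. The ratio of Prkacb to Prkaca by FPKM was 1.28, 1.39 and 1.30 in the control pools, against 1.27, 1.11 and 1.19 in the olanzapine pools, lower in each olanzapine pool than in any control pool. Regulatory exceeded catalytic subunits 2.06 ± 0.0593 times in the control and 2.22 ± 0.237 times in the olanzapine group by summed FPKM.

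Both cGMP-dependent kinases were low, and both were lower in all olanzapine pools. Prkg1, the soluble form also found in smooth muscle, had 14.2, 14.9 and 15.99 CPM in the control pools and 10.6, 12.4 and 13.1 CPM in the olanzapine pools (log2 fold change -0.32 ± 0.12, unadjusted p = 0.0276, adjusted p = 0.217, edgeR). Prkg2, the membrane-anchored form, had 15.04, 14.1 and 12.1 CPM in the control and 11.2, 10.8 and 11.1 CPM in the olanzapine pools (-0.32 ± 0.12, unadjusted p = 0.0297, adjusted p = 0.223). Their summed level was 4.67 ± 0.138 FPKM in the control and 3.81 ± 0.202 FPKM in the olanzapine group (SD). Summed markers of vascular smooth muscle and pericytes were 45.6 to 51.6 FPKM in the control and 39.8 to 63.1 FPKM in the olanzapine pools, highest in olanzapine pool 1, where Prkg1 was lowest. Of these 10 markers 5 had log2 fold changes above 0 and 5 below, from -0.52 to 0.84 with a median of 0.03. Pdgfrb (log2 fold change -0.42, unadjusted p = 0.00516) and Abcc9 (-0.52, unadjusted p = 0.0266) were lower in every olanzapine pool than in the control pools by edgeR, as Prkg1 was, and the part of these cells in the Prkg1 values was not tested.

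Some cell type markers were also lower in the olanzapine pools, but not all lists went that way. Of 8 microglial markers 7 had log2 fold changes above 0, with 2 higher and 1 lower at an unadjusted p under 0.05 (edgeR). Of 9 oligodendrocyte markers 6 had log2 fold changes above 0 and 3 below. At an unadjusted p under 0.05, 8.40% of all tested genes and 5 of the 12 LS neuron markers were lower, and none of those markers was higher. The 12 had 9 log2 fold changes below 0 and 3 above (median -0.39), and their summed FPKM overlapped between the groups. Of 8 astrocyte markers 3 were lower by the same rule, with 5 log2 fold changes below 0 and 3 above (median -0.17) and summed FPKM of 869 to 915 in the control and 775 to 900.3 in the olanzapine pools, which overlapped. Of the 10 pericyte and smooth muscle markers described above 2 were lower by that rule. All 8 brain endothelial markers had log2 fold changes below 0 (median -0.36), of which Flt1 was lower by that rule (-0.60, unadjusted p = 0.0376 by edgeR), and their summed FPKM was 98.0 to 116 in the control and 75.0 to 108 in the olanzapine pools. Whether these had a part in the lower values of Prkar2a, Prkg1, Prkg2, Pde1c and Pde4b was not tested. The members are long genes, with a median span of 107.6 kb against 23.8 kb for the 15995 tested genes with a position, and Prkg1 spans 1201 kb. Across genes, which are not independent replicates, Spearman's rho between span and log2 fold change was -0.232 over the 43 members and -0.195 over the 15995 genes.

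Leaving out olanzapine pool 1 changed the counts of members. With 2 olanzapine pools left, 12 members had an unadjusted p under 0.05, 3 higher (Pde1b, Pde7a and Pde10a) and 9 lower (Adcy1, Adcy2, Gucy1a2, Gucy2e, Pde1a, Pde1c, Pde4d, Prkar2a and Prkg2), against 18.8% of all genes in that fit (8.71% higher and 10.1% lower). Groups did not overlap for 17 members, against 37.4% of all genes, and the median log2 fold change was -0.12. Leaving out control pool 1 instead left 3 members with an unadjusted p under 0.05, against 13.4% of all genes in that fit, and leaving out control pool 2 also left 3, against 13.2%. Without control pool 2 the groups did not overlap for 14 members, against 32.2% of all genes. Among the 43 members, the highest value lay in control pool 1 for 12 (17.6% of all tested genes), in control pool 2 for 9 (11.6%) and in olanzapine pool 1 for 12 (22.8%). The lowest value lay in olanzapine pool 2 for 14 members (18.0% of all tested genes) and in olanzapine pool 1 for 10 (22.3%).

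Genes that act before or after the members were read from 8 lists, which held 102 genes in the table and 92 tested genes. Of these 3 rose and 1 fell at an adjusted p under 0.05, where 1.83% of all tested genes rose and 0.493% fell. At an unadjusted p under 0.05, 8 were higher and 16 lower, against 9.19% and 8.40% of all tested genes, with a median log2 fold change of -0.04. The 3 that rose were the nuclear A-kinase anchoring proteins Akap8 and Akap8l and the cyclic nucleotide exporter Abcc5, and the gene that fell was Cngb1, a cyclic nucleotide-gated channel subunit.

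Akap8l had 57.3, 58.9 and 52.5 CPM in the control pools and 102, 83.4 and 89.5 CPM in the olanzapine pools (log2 fold change 0.70 ± 0.09, adjusted p = 0.00901, edgeR). Akap8 had 50.04, 51.3 and 51.8 CPM in the control and 78.0, 68.1 and 75.5 CPM in the olanzapine pools (0.53 ± 0.07, adjusted p = 0.0117). Abcc5, which exports cGMP and cAMP, had 125, 125 and 107 CPM in the control and 199.8, 161 and 193 CPM in the olanzapine pools (0.64 ± 0.10, adjusted p = 0.0233). For all 3 every olanzapine pool was above every control pool, as it was for the summed nuclear-retained noncoding RNAs, whose part in these values was not tested. Akap8l kept its call when any 1 pool was left out, whereas Akap8 lost it without control pool 1 (adjusted p = 0.0633), control pool 2 (0.0603) or olanzapine pool 3 (0.0612). Abcc5 lost its call without any 1 control pool (adjusted p of 0.0691 to 0.0873) or without olanzapine pool 3 (0.0944), and with limma on log2(FPKM + 1) without a filter (0.0508). The list genes called numbered 1 without control pool 1, control pool 2 or olanzapine pool 3, where 0.760%, 0.738% and 0.785% of all genes were called, and 2 without control pool 3, where 0.988% were. Cngb1 had 4.40, 4.50 and 4.49 CPM in the control and 2.43, 2.60 and 1.93 CPM in the olanzapine pools (-0.94 ± 0.19, adjusted p = 0.0488). Its call was lost in 13 of the 15 alternatives, among them the removal of any 1 pool, with adjusted p values up to 0.171.

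By list, 2 of 23 tested A-kinase anchoring proteins rose and none fell at the adjusted threshold (1.83% and 0.493% of all tested genes). At an unadjusted p under 0.05, 6 were lower, against 8.40% of all tested genes. Among these was Akap11, which binds type II PKA regulatory subunits, with 324, 328 and 288 CPM in the control and 233, 226 and 261 CPM in the olanzapine pools (log2 fold change -0.38 ± 0.09, adjusted p = 0.0649 with edgeR and 0.00245 with DESeq2). Of 12 PKA and PKG substrates and phosphatase regulators 2 were higher by the unadjusted rule and none was lower (9.19% and 8.40% of all tested genes). Arpp19, a small phosphoprotein that PKA phosphorylates, had 144, 196 and 179 CPM in the control and 250.3, 248 and 253 CPM in the olanzapine pools (0.53 ± 0.11, adjusted p = 0.0522 with edgeR and 0.000459 with DESeq2), and it also passed with upper-quartile factors (0.0480) and without a count filter (0.0294). Ppp1r1a, a phosphatase inhibitor that PKA switches on, had 38.4, 46.9 and 47.9 CPM in the control and 56.6, 56.4 and 54.6 CPM in the olanzapine pools (0.33 ± 0.09, adjusted p = 0.124). In both every olanzapine pool was above every control pool, as held for 13.3% of all tested genes.

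Of 12 cAMP effectors other than PKA, 3 were lower by the unadjusted rule (8.40% of all tested genes) and none was higher (9.19%). Beside Cngb1 these were Cnga3, another cyclic nucleotide-gated channel subunit, with 2.10, 1.62 and 1.27 CPM in the control and 0.765, 0.936 and 0.772 CPM in the olanzapine pools (log2 fold change -1.01 ± 0.31, adjusted p = 0.149, edgeR). The remaining one was Hcn4, a hyperpolarization-activated channel that binds cAMP, with 15.55, 12.8 and 13.4 CPM in the control and 6.60, 10.2 and 12.0 CPM in the olanzapine pools (-0.53 ± 0.21, adjusted p = 0.246, and -0.32 without olanzapine pool 1). Neither gene overlapped between the groups, as held for 24.3% of all tested genes.

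None of the 12 G protein subunits and regulators was higher by the unadjusted rule (9.19% of all tested genes) and 1 was lower (8.40%). That was Gnai3, an inhibitory α subunit, with 36.8, 39.8 and 48.1 CPM in the control and 33.0, 35.0 and 35.9 CPM in the olanzapine pools (log2 fold change -0.26 ± 0.11, adjusted p = 0.250, edgeR). Its log2 fold change was -0.14 without control pool 3 (unadjusted p = 0.148), and its unadjusted p stayed under 0.05 in 6 of the 15 alternatives. In the list of PKA inhibitors and a related kinase, 2 of 5 were lower, against 8.40% of all tested genes. Pkia, a protein inhibitor of PKA, had 184, 187 and 175 CPM in the control and 154, 158 and 173 CPM in the olanzapine pools (-0.17 ± 0.07, adjusted p = 0.264). Gpr161, a ciliary receptor that anchors PKA, had 26.3, 21.1 and 20.2 CPM in the control and 16.2, 17.5 and 20.1 CPM in the olanzapine pools (-0.33 ± 0.13, adjusted p = 0.248, and -0.21 without control pool 1). In all 3 the olanzapine pools lay below the control pools by a narrow gap, and 11.0% of all tested genes were lower without overlap.

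The CREB family and its coactivators had 2 higher and 2 lower of 11 by the unadjusted rule, against 9.19% and 8.40% of all tested genes. Crtc2, a CREB coactivator held out of the nucleus by salt-inducible kinases, had 20.9, 21.0 and 19.9 CPM in the control and 24.1, 25.2 and 28.8 CPM in the olanzapine pools (log2 fold change 0.34 ± 0.09, adjusted p = 0.118, edgeR). Sik1, one of those kinases, had 39.9, 41.4 and 38.5 CPM in the control and 33.0, 30.2 and 34.7 CPM in the olanzapine pools (-0.29 ± 0.08, adjusted p = 0.115). Ep300, an acetyltransferase that CREB recruits, had 95.1, 107 and 89.8 CPM in the control and 85.2, 73.1 and 82.1 CPM in the olanzapine pools (-0.28 ± 0.09, adjusted p = 0.1695). For each of the 3 the groups did not overlap, as held for 24.3% of all tested genes.

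In the nitric oxide and natriuretic peptide list 1 was higher and 1 lower of 11, against 9.19% and 8.40% of all tested genes. Nos1, which makes the nitric oxide that soluble guanylyl cyclase senses, had 113, 100.5 and 80.4 CPM in the control and 70.5, 73.2 and 83.3 CPM in the olanzapine pools (log2 fold change -0.37 ± 0.13, adjusted p = 0.185, edgeR), with overlapping groups. Guca1b, a calcium-binding activator of the retinal guanylyl cyclases, was near the limit of detection, with 0.179, 0.379 and 0.355 CPM in the control and 1.19, 0.430 and 0.875 CPM in the olanzapine pools (1.44 ± 0.52, adjusted p = 0.205). In the last list, the receptor for the cyclase-activating peptide PACAP, Adcyap1r1, had 405, 344 and 312 CPM in the control and 256, 261 and 302 CPM in the olanzapine pools (-0.37 ± 0.11, adjusted p = 0.143 with edgeR and 0.0352 with DESeq2), with every olanzapine pool below every control pool.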

How the data were processed

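Paired-end RNA-seq reads of LS pools were trimmed with fastp, aligned to the mouse genome (mm10) with HISAT2 and counted per gene with HTSeq, as the study's methods and the submitters' processing notes state, with tool versions and strand setting not given in the sources used here. The authors deposited raw counts and FPKM, the latter computed by the authors from the same alignments. The paper's supplementary values were not used, 0 columns of sample values were left out and 0 genes had no name.

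Counts were filtered with filterByExpr (minimum count 10, minimum total 15), normalized with TMM and tested with edgeR 4.0.16 in R 4.3.3 (quasi-likelihood F test, group as the only term, 3 pools against 3), and p was adjusted by Benjamini-Hochberg over every gene tested. The SE of a log2 fold change was |log2 fold change| over the root of F. An exact permutation test of 3 against 3 cannot go below p = 0.1 and was not used. FPKM served for levels and ratios and, among the alternatives, for the limma fits. Nothing beyond the pooling says that pools were independent, so p-values measure the spread between these libraries. The code was tested on simulated data with known changes.

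The members and all lists were chosen with earlier results of these data known. Values per pool were given for the leading members of each family by FPKM, all kinase subunits, members with an unadjusted p under 0.05, and list genes with an adjusted p under 0.05 or, among the 3 smallest p of a list, an unadjusted p under 0.05. Adcy9, Pde1a, Pde7b, Pde10a, Pde3a, Pde6d, Gucy1a1, Gucy1a2, Gucy2e and Gucy2g were added after their values were seen. Alternatives were DESeq2 1.42.0, RLE and upper-quartile factors, no count filter, a filter at a mean of 50 counts, a block on the replicate number, limma 3.58.1 on FPKM after log2 with 1 or 0.1 added (mean FPKM 0.1 or more, and for the former also unfiltered), and leaving out each pool in turn. Gene positions came from GENCODE and promoter sequences from RefSeq (GRCm38.p6). Protein sequences were not analysed here.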

Additional observations from a re-analysis of the deposited data

How the results depend on the processing

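Low genes such as Gucy2c and Gucy2f rest on few counts. The number of members with an adjusted p under 0.05 was 0, and 1 with DESeq2 and 0 to 1 when 1 pool was left out. The shares of all genes were 2.32% with all pools, 6.69% with DESeq2 and 2.87% without olanzapine pool 1, the fit with 1 member. Members with an unadjusted p under 0.05 numbered 3 to 12 with 1 pool left out (6 with all pools). The shares of all genes were 13.2% and 13.4% in the fits with 3, 18.8% in the fit with 12 and 17.6% with all pools. Members without overlap numbered 8 to 17 (8 with all pools), against 24.3% of all genes with all pools and 37.4% in the fit with 17. The median log2 fold change lay between -0.12 and -0.0002. List genes with an adjusted p under 0.05 numbered 4, and 10 with DESeq2 (2.32% and 6.69% of all genes). They numbered 2 with limma on log2(FPKM + 1) without a filter, for which the share of all genes is not given here. With 1 pool left out they numbered 1 to 5, against 0.738% to 0.785% of all genes in the fits with 1 and 2.87% in the fit with 5. With the replicate number as a block, where 0.811% of all genes had an adjusted and 16.8% an unadjusted p under 0.05, members numbered 0 and 6, list genes with an adjusted p under 0.05 numbered 1 (Akap8 was at 0.0505, Abcc5 at 0.0727 and Cngb1 at 0.118), and the log2 fold change of Adcy1 was -0.14. The labels' numbers did not pair the pools, since deviations of same-numbered pools correlated at -0.0026, 0.0616 and -0.255, and no pairing is implied by the design.

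Of 1000 values of 67 genes (the 43 tested members and 24 list genes) under the alternatives, 921 kept direction and side of the threshold, 23 lost a call, 6 gained one and 50 changed sign. Limma gave Adcy1 -0.0839 on log2(FPKM + 1), with or without the filter, and -0.10 on log2(FPKM + 0.1), and on the same scales gave 0.0106 and 0.0107 for Prkaca, 0.01 and 0.0113 for Pde7b, and 0.014 and 0.0199 for Pde3b. Pde3b was 0.0032 with upper-quartile factors and 0.007 with the filter at a mean of 50 counts. Leaving out 1 pool moved the log2 fold change across 0 for 21 members, Adcy1 (-0.74 to 0.48), Adcy2 (-0.26 to 0.12), Adcy4 (-0.43 to 0.34), Adcy5 (-0.18 to 0.12), Adcy7 (-0.22 to 0.0108), Adcy8 (-0.22 to 0.0388), Adcy9 (-0.24 to 0.21), Prkaca (-0.0552 to 0.0312), Prkar1b (-0.0556 to 0.19), Prkar2b (-0.0941 to 0.0434), Pde1a (-0.34 to 0.37), Pde3b (-0.0433 to 0.04), Pde4a (-0.0811 to 0.21), Pde5a (-0.91 to 0.11), Pde7b (-0.23 to 0.18), Pde8a (-0.13 to 0.044), Pde8b (-0.0228 to 0.14), Pde9a (-0.22 to 0.0088), Pde11a (-0.0141 to 0.13), Gucy2g (-0.53 to 2.44) and Gucy1a1 (-0.051 to 0.16). The cause was not tested. Between 8 and 11 of the 15 alternatives kept an unadjusted p under 0.05 for Pde1c, Pde4b, Prkg1 and Prkg2.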
